A study of Rattus norvegicus with 22 samples.

Results

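The genes that drive the cell cycle and copy DNA were measured in rat embryos, fetal organs and the livers of their mothers. They were chosen by a rule on gene names, set with earlier results of these data known. The rule took probe sets with a single annotated symbol. That symbol begins with Mcm and a digit, Rfc, Pola, Pold, Pole, Prim, Rrm, Aurk, Bub, Cdk, Cdc (but not Cdc42), Ccna, Ccnb, Ccnd or Ccne and a digit, or is Pcna, Top2a, Mki67 or Plk1. This gave 129 of the 15866 probe sets, for 97 of 10411 named genes. By role, 6 probe sets belong to the MCM helicase, 18 to the polymerases, primase, clamp and clamp loader, 1 to ribonucleotide reductase and 25 to mitotic cyclins, kinases and their partners. A further 9 belong to the G1 cyclins and kinases, 8 to the CDK inhibitors and 6 to the anaphase-promoting complex. The name rule also takes in 38 probe sets of cyclin-dependent kinases (CDKs) with tasks outside the core cycle and of their partners, and 18 of other genes. Some of these share only a name with the cell cycle, such as Cdcp1 and Cdkal1. Cdc6, Cdc45, Ccna2, Rrm2, Cdk2 and Bub1 were not analysed here.

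A dividing cell passes through G1, copies its DNA in S phase and separates the copies in mitosis. D-type cyclins with Cdk4 or Cdk6, and then cyclin E, release the E2F transcription factors, which turn on genes for replication. The MCM complex unwinds DNA, primase and polymerase alpha start each strand, and polymerases delta and epsilon extend it with the sliding clamp PCNA, which the RFC complex loads. Cyclin B with Cdk1 then starts mitosis, Aurora and Polo kinases build the spindle, and the anaphase-promoting complex with Cdc20 ends it. CDK inhibitors such as p21 (Cdkn1a) hold the cycle back. Embryonic tissue is known to divide rapidly, the fetal liver is also a site of blood formation, and most hepatocytes of an adult liver rest outside the cycle.

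Pregnant Wistar rats received vehicle, EMD 82571 (MSC1096199 in the design text) at 50 or 150 mg/kg/day, or retinoic acid at 12 mg/kg/day. Dams were dosed daily from gestational day 6 to day 11 or day 17 according to the protocols, and to day 17 according to the design text. Whole embryo and maternal liver were taken at day 12 (5 arrays each), and embryo liver, embryo bone and maternal liver at day 20 (4 arrays each), 22 arrays in all. Each tissue and day was covered by a control array, both EMD 82571 doses (1 array per dose) and retinoic acid (1 array at day 20, 2 at day 12). The retinoic acid titles carry the unexplained codes RA5 and RA56 at day 12 and RA56 at day 20. Nothing says which samples came from separate animals or litters, so the p-values measure the spread between these samples, which may be technical. Levels are log2 values from RMA (robust multi-array averaging), 1 unit is a 2-fold difference, and levels of different probe sets are not compared with each other.

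Several arrays stood apart in genes outside the group. Hepatocyte markers (11 of 12 measured) had a median of 9.71 in control bone and 9.56 in retinoic acid bone, against 7.25 and 7.53 in the bone arrays of the low and high EMD 82571 dose. They also lay at 9.22 and 9.18 in the retinoic acid embryos against 7.86 to 8.28 in the other embryos. In the control maternal liver of day 12, 2 of 8 erythroid genes stood apart: Hbb, a globin, at 14.0 against 12.63 to 12.83 in the treated arrays, and Alas2, a heme synthesis gene, at 10.7 against 8.44 to 9.26. Skeletal muscle markers (12 of 12) lay at 10.15 in the retinoic acid maternal liver of day 20, against 6.86 to 7.15 in the other maternal livers of that day. In the bone arrays muscle markers lay at 12.08 to 13.08, beside bone and cartilage markers (11 of 12) at 12.21 to 12.67. The difference between the 3′ and 5′ GAPDH control probe sets, a sign of RNA integrity, was 2.72 in the low dose bone array and 0.57 to 0.86 elsewhere. Results were recomputed without 3 retinoic acid arrays (embryo bone, maternal liver of day 20 and the RA56 embryo), a set chosen with earlier results of these data known, and without 5 arrays, which adds control and low dose bone. These sets are not an even exclusion by the markers above, since the RA5 embryo is as high in hepatocyte markers as the RA56 embryo and is kept. The part of these marker and RNA differences in the results was not tested. In bulk tissue, fewer cells of a type and less RNA per cell cannot be told apart.

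The MCM genes and most mitotic probe sets followed the order whole embryo, embryo liver, embryo bone, maternal liver. All 13 arrays of embryo, fetal liver and fetal bone (together, the conceptus) lay above all 9 maternal liver arrays for 48 of 129 probe sets, or 37.2%, against 6.42% of all probe sets on the array. This held for 6 of 6 MCM probe sets, 18 of 25 mitotic, 5 of 9 G1, 4 of 6 of the anaphase-promoting complex and 6 of 18 polymerase and clamp probe sets, but for 2 of 38 of the other CDKs and their partners. The reverse, with all 13 arrays below all 9, was found for 2 probe sets (7.58% of the array), 1 each of Pold4 and Cdk18. The mean levels fell in the full order, with both maternal livers last, for 45 of 129 probe sets (34.9%, against 4.56% of the array). These included 6 of 6 MCM, 18 of 25 mitotic, 10 of 18 polymerase and clamp and 2 of 9 G1 probe sets. They included 0 of 6 of the anaphase-promoting complex and 0 of 8 of the CDK inhibitors.

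**Figure D1:**
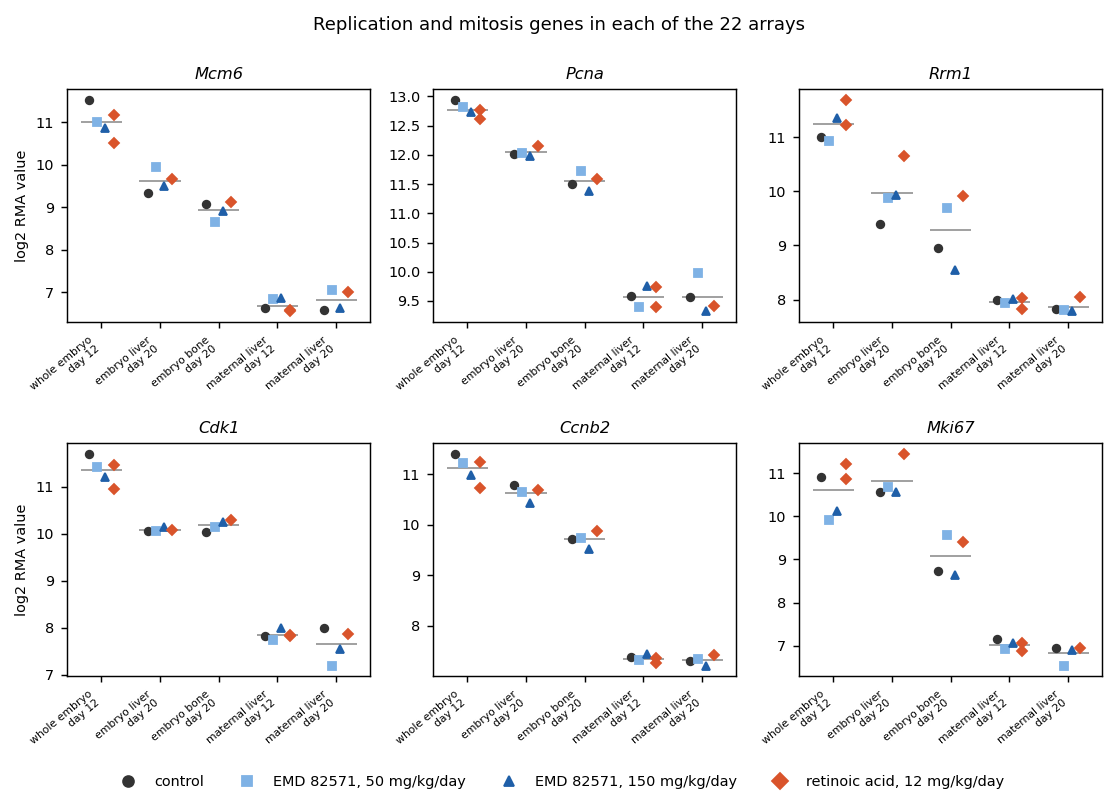
Log2 RMA values (vertical axis, a separate scale for each gene) of Mcm6, Pcna, Rrm1, Cdk1, Ccnb2 and Mki67 in each of the 22 arrays, by tissue and day. Symbols and colours mark the treatment, and a grey line marks the mean of each tissue and day. Every array of embryo, fetal liver and fetal bone lies above every maternal liver array in all 6 panels, and the ranges of Mki67 in embryo liver and whole embryo overlap.

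Replication genes were much higher in the day 12 embryo than in maternal liver of the same day. Adjusted over all probe sets with limma, 106 of 129 members were called (82.2%, against 69.8% of the array), 90 higher in the embryo and 16 lower. Since most of the array differed between these tissues, the direction and size say more than the count: the background was 35.5% higher and 34.3% lower. At 2-fold or more, 67 members were higher (51.9%, against 15.4%) and 2 were lower (against 10.1%). The median difference of the members was 1.03, against -0.04 over all probe sets. By role, higher calls were made for 6 of 6 MCM, 23 of 25 mitotic, 15 of 18 polymerase and clamp, 8 of 9 G1 and 6 of 6 anaphase-promoting complex probe sets, and for 2 of 8 CDK inhibitors and 16 of 38 other CDKs.

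Mcm6, a subunit of the helicase ring, showed the largest difference of the MCM genes. In whole embryo it lay at 11.52 in control, 11.00 and 10.86 at the low and high EMD 82571 dose and 10.50 and 11.17 with retinoic acid (RA5, RA56). Maternal liver of day 12 gave, for the same treatments, 6.62, 6.84, 6.86, 6.58 and 6.55. The lowest embryo was thus far above the highest maternal liver, and the treatments spread far less than the tissues. The difference was 4.32 ± 0.16 (log2 ± SE, 5 arrays against 5), or 19.9-fold (limma, adjusted p = 1.1e-14). The other 5 MCM genes differed by 2.48 (Mcm5) to 3.48 (Mcm7).

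At day 20 Mcm6 was at 9.33, 9.94, 9.50 and 9.67 in embryo liver (control, low dose, high dose, retinoic acid) and at 9.07, 8.65, 8.92 and 9.13 in embryo bone. Maternal liver of day 20 had 6.59, 7.05, 6.62 and 7.01. The 3 tissues did not overlap, and embryo liver lay below every day 12 embryo. Embryo liver stood 2.79 ± 0.18 above maternal liver (adjusted p = 2.41e-10) and 1.40 below whole embryo, and bone stood 0.67 ± 0.18 below embryo liver (adjusted p = 0.00508). All 6 MCM genes were called in the same direction in each of these comparisons, though between bone and embryo liver 4 of the 6 calls were lost without the 5 arrays named above.

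MCM and mitotic promoters are shown because 6 of 6 MCM and 18 of 25 mitotic probe sets followed the full tissue order. They are also known as places where E2F factors or the complexes that restrain mitotic genes bind. Of the printed mitotic genes, Cdk1 did not follow that order. Its mean was slightly higher in bone than in embryo liver, a difference that did not pass the test. The sequences come from RefSeq, assembly GRCr8, and give the 250 bases before the annotated start, 5′ to 3′ on the gene's strand. Capitals mark the letters TTTCGCGC or TTTGGCGC (an E2F site in its usual spelling), TTTGAA (the cell cycle homology region, CHR) and CCAAT (the CCAAT box, bound by NF-Y), searched on both strands. The helicase genes are Mcm2 (chr4:122918095-122918344, minus strand), Mcm5 (chr19:13488563-13488812, plus strand) and Mcm6 (chr13:42404353-42404602, minus strand). The mitotic genes are Cdk1 (chr20:19265043-19265292, plus strand) and Cdc20 (chr5:137255800-137256049, minus strand). Pold4 (chr1:210955944-210956193, plus strand), the polymerase subunit that was highest in maternal liver and lowest in whole embryo, is added for contrast.
Mcm2: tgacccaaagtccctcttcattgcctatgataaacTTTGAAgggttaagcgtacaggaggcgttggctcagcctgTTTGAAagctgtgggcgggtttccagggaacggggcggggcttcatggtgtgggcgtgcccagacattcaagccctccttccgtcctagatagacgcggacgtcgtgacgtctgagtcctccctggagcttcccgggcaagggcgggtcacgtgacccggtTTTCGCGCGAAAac
Mcm5: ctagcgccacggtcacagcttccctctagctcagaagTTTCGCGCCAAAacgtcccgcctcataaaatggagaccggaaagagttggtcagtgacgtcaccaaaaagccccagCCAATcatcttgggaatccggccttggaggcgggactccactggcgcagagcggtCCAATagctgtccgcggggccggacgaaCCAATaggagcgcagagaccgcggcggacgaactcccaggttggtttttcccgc
Mcm6: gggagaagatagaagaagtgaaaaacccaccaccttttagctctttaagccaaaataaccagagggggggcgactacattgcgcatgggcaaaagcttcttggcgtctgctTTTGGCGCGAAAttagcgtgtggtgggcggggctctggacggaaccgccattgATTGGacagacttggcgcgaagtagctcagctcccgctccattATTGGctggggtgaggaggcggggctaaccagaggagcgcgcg
Cdk1: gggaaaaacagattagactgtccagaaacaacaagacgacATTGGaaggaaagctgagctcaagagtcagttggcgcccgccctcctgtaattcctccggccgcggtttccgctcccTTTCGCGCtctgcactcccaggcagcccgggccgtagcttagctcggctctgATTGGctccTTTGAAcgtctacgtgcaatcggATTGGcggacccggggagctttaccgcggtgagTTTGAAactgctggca
Cdc20: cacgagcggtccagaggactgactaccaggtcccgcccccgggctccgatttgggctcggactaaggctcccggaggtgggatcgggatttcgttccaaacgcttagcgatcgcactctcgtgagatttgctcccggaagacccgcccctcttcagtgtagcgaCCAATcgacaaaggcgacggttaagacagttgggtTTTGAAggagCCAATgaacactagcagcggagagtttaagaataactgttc
Pold4: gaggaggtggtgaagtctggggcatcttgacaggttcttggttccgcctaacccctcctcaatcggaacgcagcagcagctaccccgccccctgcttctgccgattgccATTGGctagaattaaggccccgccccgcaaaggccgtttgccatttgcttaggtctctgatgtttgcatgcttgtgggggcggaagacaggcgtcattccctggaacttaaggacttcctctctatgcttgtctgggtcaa

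In Mcm2, Mcm5 and Mcm6 the E2F letters were found on both strands in overlapping copies, so that the capitals there form a longer run. Cdk1 held E2F, CHR and CCAAT letters, Cdc20 held CHR and CCAAT letters, and Pold4 held a single CCAAT. Over windows of 300 bases (250 before and 50 after the start), 84 of the 97 genes had a RefSeq promoter in the table used. The E2F letters were present in 5 of 5 MCM promoters, 3 of 15 polymerase and clamp promoters (Pola1, Pole and Rfc3) and 2 of 17 mitotic promoters (Cdk1 and Cdc25a). All promoters of that length held them in 231 of 27457 cases, or 0.841%. CHR letters were in 9 of 17 mitotic promoters (52.9%, against 18.1% of all), CCAAT in 14 of 17 (82.4%, against 37.7%), and both in 8 of 17 (47.1%, against 7.25%). CCAAT was as common in MCM promoters, in 4 of 5 (80%), and was in 9 of 15 polymerase and clamp promoters (60%). CHR letters were in 1 of 5 MCM promoters, the printed Mcm2, and in 0 of 15 of the polymerase group. Among the other CDKs and their partners, 0 of 23 held the E2F letters, 13% the CHR letters and 39.1% CCAAT. A match describes the letters in the window, not a bound site, and a window without a match says nothing about the factor.

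**Figure D2:**
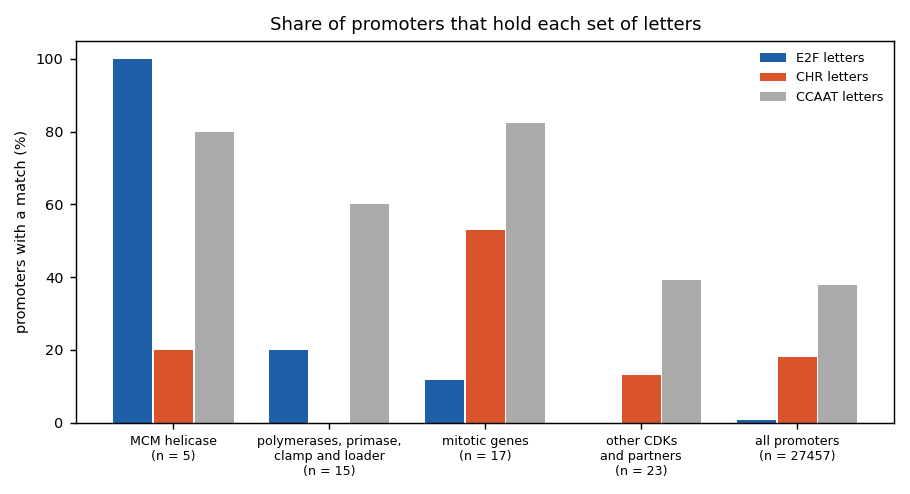
Share of promoters (vertical axis, percent) that hold the E2F, CHR or CCAAT letters on either strand in a window of 300 bases, for 4 groups of members and for all 27457 promoters of the table. The E2F bar reaches 100% for the 5 MCM promoters and 0.841% for all promoters, and the CHR and CCAAT bars of the mitotic genes stand at 52.9% and 82.4%.

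Among the genes of the replication fork, Pcna, the sliding clamp, was high in all tissues and still separated them. Its levels in whole embryo were 12.94, 12.82, 12.73, 12.62 and 12.76 (control, low dose, high dose, RA5, RA56), in embryo liver 12.01, 12.04, 11.98 and 12.16, and in bone 11.50, 11.73, 11.39 and 11.58. In maternal liver it ran from 9.39 to 9.76 at day 12 and from 9.32 to 9.98 at day 20. None of the 3 conceptus tissues overlapped with another. The embryo exceeded maternal liver by 3.20 ± 0.11 (adjusted p = 4.44e-15), and embryo liver exceeded maternal liver by 2.47 ± 0.13. Rrm1, the large subunit of ribonucleotide reductase, which makes the building blocks of DNA, exceeded maternal liver by 3.28 ± 0.19 in the embryo and by 2.10 ± 0.21 in embryo liver. Pola1, the catalytic subunit of polymerase alpha, differed by 2.59 ± 0.13 at day 12 and Pold1, that of polymerase delta, by 2.34 ± 0.15.

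Other fork genes differed less. Pole, the catalytic subunit of polymerase epsilon, was 1.26 ± 0.083 higher in embryo than in maternal liver, and Prim2, a primase subunit, 0.96 ± 0.092 higher. The clamp loader genes ranged from Rfc3 at 2.52 ± 0.13 and Rfc4 at 2.47 ± 0.25 down to Rfc1, the large subunit, at 0.60 ± 0.11. The other 2 Rfc1 probe sets, at 0.20 and 0.22, did not pass the test (adjusted p = 0.0665 and 0.0933).

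Pold4, a small accessory subunit of polymerase delta, had the ends of the order swapped, with embryo liver still above bone. It lay at 8.04, 8.08, 8.06, 8.25 and 8.1 in whole embryo and at 10.17, 9.99, 10.30, 10.04 and 10.07 in maternal liver of day 12. At day 20 it was at 9.64, 9.56, 9.10 and 9.68 in embryo liver, 8.64, 8.61, 9.0 and 8.97 in bone and 10.73, 10.52, 10.35 and 9.86 in maternal liver. All 9 maternal liver arrays were above all other arrays, and the whole embryo was lowest. The difference between embryo and maternal liver was -2.01 ± 0.14 (adjusted p = 1.68e-10) at day 12, and that between embryo liver and maternal liver -0.87 ± 0.16 (adjusted p = 0.000225) at day 20.

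Mitotic genes also separated the conceptus from maternal liver. Ccnb2, a B-type cyclin, lay at 11.40, 11.23, 10.99, 10.72 and 11.25 in whole embryo and at 7.26 to 7.43 in maternal liver of day 12. Embryo liver had 10.78, 10.64, 10.43 and 10.68, bone 9.71, 9.74, 9.51 and 9.87, and maternal liver of day 20 had 7.21 to 7.41. Bone was below every embryo and embryo liver array, and the maternal arrays were lower still, with both days alike in range. The difference at day 12 was 3.77 ± 0.10, or 13.6-fold (adjusted p = 9.07e-17), and at day 20 in embryo liver 3.32 ± 0.12 (adjusted p = 1.74e-14). Cdk1, the kinase that cyclin B activates, differed by 3.51 ± 0.13 at day 12. Aurka and Aurkb, kinases of the spindle and the chromosomes, differed by 2.50 ± 0.11 and 2.32 ± 0.14, Bub1b, a spindle checkpoint kinase, by 2.45 ± 0.15 and Plk1, the Polo kinase, by 1.89 ± 0.10.

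The 5 probe sets of Cdc20, the activator of the anaphase-promoting complex, did not give the same size. They differed between embryo and maternal liver of day 12 by 2.46, 1.92, 1.12, 0.56 and 0.11, and the last did not pass the test (adjusted p = 0.0741). Of the core subunits of the complex itself, Cdc16 was 1.45 ± 0.10 higher in the embryo and Cdc23 2.17 ± 0.14.

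At day 20, embryo liver carried nearly all mitotic and all MCM genes above maternal liver. Against maternal liver of that day, 74 of 129 members were called (57.4%, against 33% of the array), 66 higher and 8 lower, where the array had 16.4% higher and 16.6% lower. At 2-fold or more, 34 members were higher (26.4%, against 3.07%), and the median difference was 0.30 against 0.05 over all probe sets. Higher calls covered 24 of 25 mitotic, 6 of 6 MCM and 12 of 18 polymerase and clamp probe sets. They also covered 5 of 9 G1 and 4 of 8 CDK inhibitor probe sets, and 6 of 38 other CDKs.

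Mki67, the nuclear protein used as a marker of dividing cells, lay at 10.56, 10.68, 10.56 and 11.44 in embryo liver (control, low dose, high dose, retinoic acid). Maternal liver of day 20 had 6.95, 6.54, 6.90 and 6.94, and whole embryo had 10.91, 9.92, 10.11, 10.87 and 11.20. Embryo liver overlapped with whole embryo and stood 3.97 ± 0.22 above maternal liver, or 15.7-fold (adjusted p = 2.63e-11). Its difference from whole embryo was 0.26 ± 0.21 (adjusted p = 0.273). Cdkn3, a phosphatase that acts on CDKs, was 3.18 ± 0.20 higher in embryo liver than in maternal liver and 0.61 higher than in whole embryo (adjusted p = 0.00936).

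Cdc25b, a phosphatase that activates Cdk1 at the entry into mitosis, was highest in embryo liver. It lay there at 11.70, 11.76, 11.62 and 11.64, against 9.73, 9.53, 9.60, 9.16 and 9.91 in whole embryo, 9.96, 9.08, 9.73 and 9.54 in bone and 7.19 to 7.53 in maternal liver of day 20. The 4 embryo livers lay close together and above every other array. The difference from maternal liver was 4.37 ± 0.19, or 20.7-fold (adjusted p = 6.17e-13), and from whole embryo 2.07 ± 0.18 (adjusted p = 1.05e-08). Erythroid markers (8 of 12 measured) had a median of 11.45 to 11.54 in embryo liver, against 9.17 to 9.65 in whole embryo, 8.51 to 9.19 in bone and 7.90 to 8.38 in maternal liver. Of the myeloid markers (7 of 10), 3 were called higher and 2 lower in embryo liver than in maternal liver of day 20. S100a8 lay at 8.6, 8.92, 7.63 and 10.03 in embryo liver (control, low dose, high dose, retinoic acid) against 5.37 to 5.45 in maternal liver, and was highest with retinoic acid. Their part in the embryo liver levels was not tested.

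**Figure D3:**
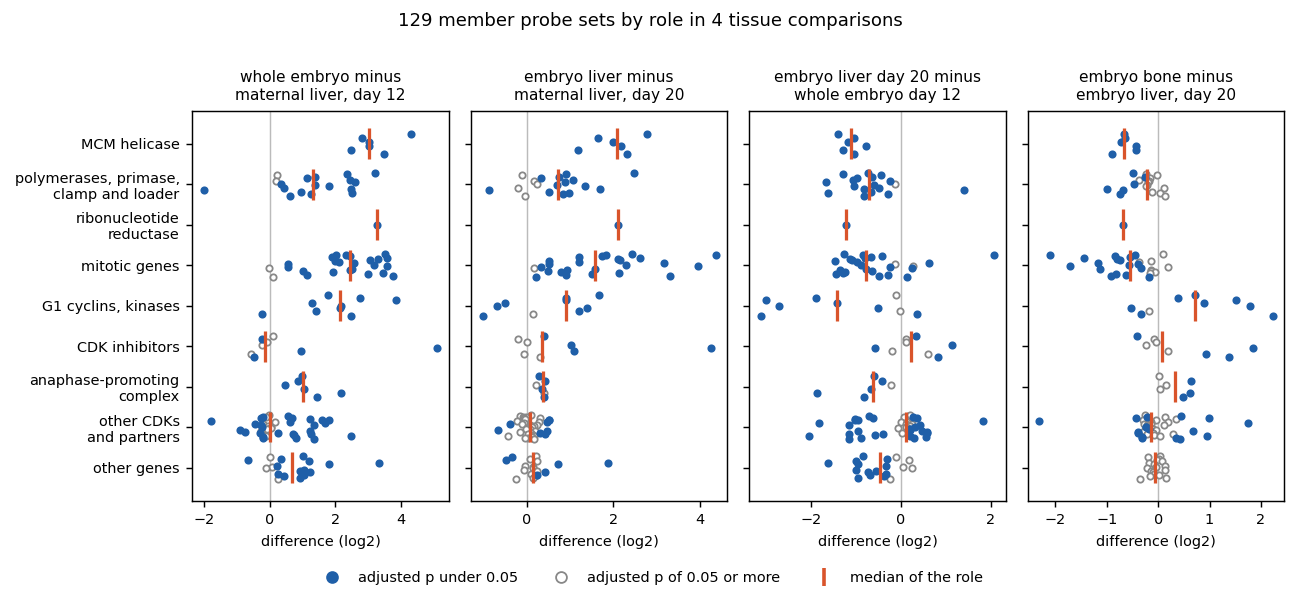
Log2 difference (horizontal axis) of each of the 129 member probe sets in 4 tissue comparisons, grouped by role (vertical axis). Filled points have a limma adjusted p under 0.05, open points do not, and the red bar is the median of the role. The MCM and mitotic groups lie to the right of 0 in both comparisons with maternal liver, with medians of 3.04 and 2.45 at day 12, while the CDK inhibitors and other CDKs straddle 0.

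Most members were lower in each fetal organ of day 20 than in whole embryo of day 12. Embryo liver against whole embryo gave 104 calls (72.9% of the array), 81 lower (33.6%) and 23 higher (39.2%), with a median of -0.58 against 0.07. At 2-fold or more, 33 members were lower (against 12.6%). Embryo bone against whole embryo gave 91 calls (46.6% of the array), 81 lower (26.7%) and 10 higher (19.9%), with a median of -0.60 against 0.01, and 43 were lower by 2-fold or more (against 5.67%). These comparisons share the 5 whole embryo arrays, and they set a whole animal against an organ, so day and tissue cannot be told apart.

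In bone, 6 of 6 MCM genes were called lower than in whole embryo, with a median of -1.82, and 21 of 25 mitotic probe sets, with a median of -1.30. Ccnb1, the other B-type cyclin, differed by -2.25 ± 0.14 and -1.95 in its 2 probe sets, Mcm6 by -2.07 ± 0.18 and Aurka by -1.91. In embryo liver the largest differences were those of Ccnd1 and Ccnd2, D-type cyclins, which carry growth signals into G1. The differences were -2.70 for Ccnd1 (-3.11 and -1.43 in its other probe sets) and -3.01 ± 0.14 for Ccnd2 (adjusted p = 1.53e-12). Ccnd3, the remaining D-type cyclin, was at -0.11 (interval -0.34 to 0.13, adjusted p = 0.387). The partner kinase of D-type cyclins, Cdk4, differed by -1.88 ± 0.11 (adjusted p = 1.6e-11), and Ccnb2 by -0.49 ± 0.11 (adjusted p = 0.000709).

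Fetal bone and fetal liver of day 20 differed in which cycle genes they carried. Of the members, 62 were called (48.1%, against 55.2% of the array), 43 lower in bone and 19 higher, where the array had 29.6% lower and 25.6% higher. The count is thus near the background, and the medians, -0.15 against -0.07, are close too. Lower in bone were 6 of 6 MCM, 17 of 25 mitotic and 6 of 18 polymerase and clamp probe sets, with 0 higher in these groups. Higher in bone were 6 of 9 G1 probe sets (2 lower) and 3 of 8 CDK inhibitors (1 lower). The 9 G1 probe sets stand for 7 genes, and 3 of them are of Ccnd1, all higher in bone. Without the 5 arrays, 1 bone array is left (assumed to vary like the other groups), and fewer members were called. Mcm2, Mcm3, Mcm5, Mcm6 and Pcna lost their calls, at -0.44, -0.53, -0.41, -0.65 and -0.60, against -0.44, -0.65, -0.44, -0.67 and -0.49 with all arrays.

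The largest differences against bone were those of Cdk2ap2, a CDK2-associated protein, at -2.31 ± 0.14 and of Cdc25b at -2.11 ± 0.19 (adjusted p = 2.24e-08). Mki67 followed at -1.72 ± 0.22 (adjusted p = 2.9e-06). Cdk1 did not pass the test, at 0.09 ± 0.15 (adjusted p = 0.615), with 10.04 to 10.29 in bone and 10.06 to 10.14 in embryo liver.

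Ccnd1, cyclin D1, was ordered otherwise than the replication genes. Its values were 11.79, 11.62, 11.22, 10.71 and 11.81 in whole embryo, 10.81, 10.47, 10.37 and 10.47 in bone and 8.80, 8.83, 8.46 and 8.91 in embryo liver. Maternal liver had 9.34, 9.22, 9.23, 9.41 and 9.08 at day 12 and 9.76, 9.70, 9.05 and 9.24 at day 20. Embryo liver was thus the lowest tissue, below every maternal array. Bone exceeded it by 1.78 ± 0.17 (adjusted p = 5.16e-08), and embryo liver differed from maternal liver by -0.69 ± 0.17 (adjusted p = 0.00387). The other 2 Ccnd1 probe sets gave the same directions, at 2.23 and 0.89 for bone and at -1.02 and -0.51 against maternal liver.

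Ccnd2, cyclin D2, lay at 12.42, 11.80, 11.76, 12.01 and 12.27 in whole embryo, 10.45, 10.59, 10.05 and 11.00 in bone and 8.84, 8.93, 9.06 and 9.23 in embryo liver. Maternal liver ran from 8.05 to 8.32 at day 12. These tissues did not overlap, and embryo exceeded maternal liver by 3.86 ± 0.14, or 14.6-fold (adjusted p = 3.33e-15). Ccne1, cyclin E1, which acts at the entry into S phase, differed by 2.14 ± 0.11 there and by 1.40 ± 0.13 between embryo liver and maternal liver. It was 0.52 ± 0.13 lower in bone than in embryo liver (difference -0.52, adjusted p = 0.00197), while Ccnd2 was 1.51 ± 0.15 and Ccnd3 0.71 ± 0.12 higher in bone. Cdk6, which like Cdk4 pairs with D-type cyclins, was slightly lower in the embryo than in maternal liver (-0.23 ± 0.089, adjusted p = 0.0266).

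The CDK inhibitors had no common direction: of 8 probe sets, 2 were higher and 2 lower in embryo than in maternal liver, and 3 higher and 1 lower in bone than in embryo liver. Cdkn1a, which encodes p21, lay at 11.03, 10.53, 10.91 and 11.39 in bone (control, low dose, high dose, retinoic acid) and at 9.54, 9.39, 9.68 and 9.74 in embryo liver. Whole embryo had 8.66, 8.87, 8.92, 9.0 and 8.58, and maternal liver 9.11 to 9.37 at day 12 and 9.14, 8.95, 9.13 and 9.90 at day 20. Bone was above every other array, and whole embryo overlapped only with maternal liver of day 20. The differences were 1.38 ± 0.15 between bone and embryo liver (adjusted p = 3.21e-07), 2.20 ± 0.15 between bone and whole embryo (adjusted p = 3.91e-10) and -0.47 ± 0.14 between embryo and maternal liver of day 12 (adjusted p = 0.00506).

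Cdkn1c, which encodes p57 and is an imprinted gene, had the largest difference of all members between embryo and maternal liver. Its levels were 12.38, 11.92, 11.83, 12.18 and 12.41 in whole embryo, 11.80, 11.63, 10.52 and 12.19 in embryo liver and 13.20, 13.82, 13.07 and 13.41 in bone. Maternal liver lay between 6.91 and 7.2 at day 12 and between 7.10 and 7.58 at day 20. The embryo exceeded maternal liver by 5.11 ± 0.21, or 34.4-fold (adjusted p = 2.95e-14), and embryo liver by 4.27 ± 0.23 (adjusted p = 1.36e-11). Unlike the replication genes it was highest in bone, 1.84 ± 0.23 above embryo liver (adjusted p = 1.78e-06). Cdkn2c, which encodes p18 and binds Cdk4 and Cdk6, was 1.03 ± 0.13 higher in embryo liver than in maternal liver (adjusted p = 2.08e-06), and Cdkn2a did not pass the test in either comparison with maternal liver.

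**Figure D4:**
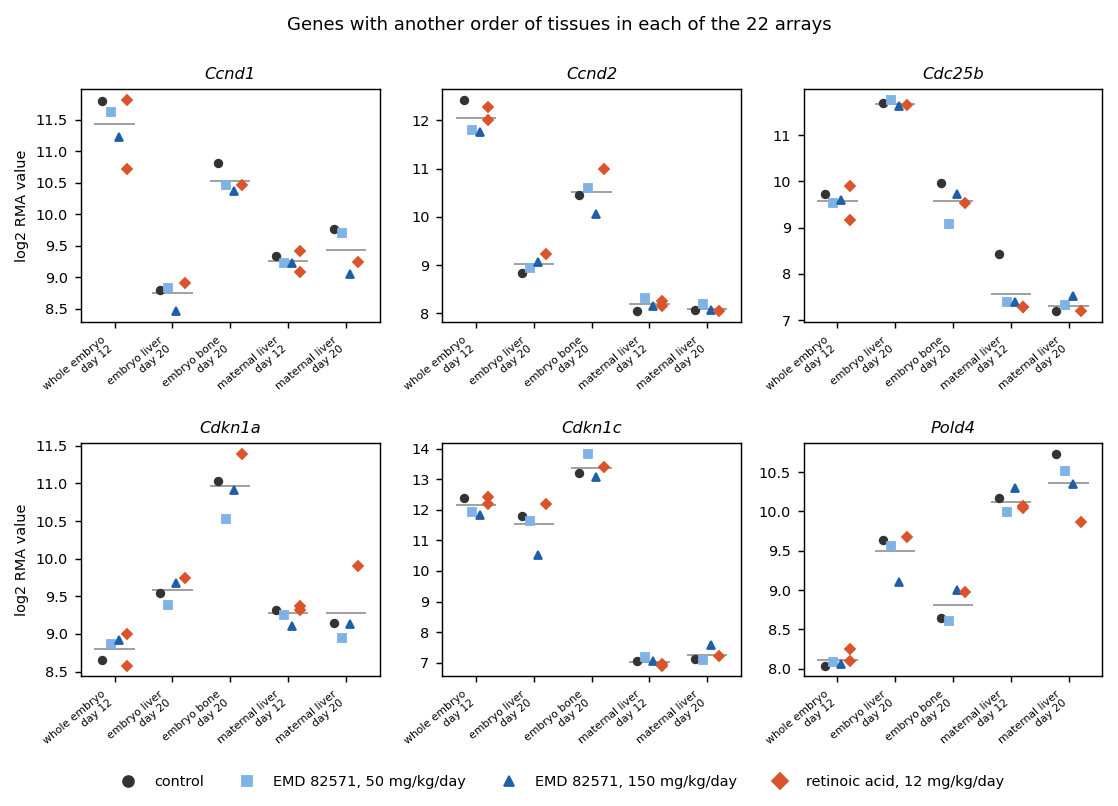
Log2 RMA values (vertical axis, a separate scale for each gene) of Ccnd1, Ccnd2, Cdc25b, Cdkn1a, Cdkn1c and Pold4 in each of the 22 arrays, by tissue and day. Symbols and colours mark the treatment, and a grey line marks the mean. Embryo liver is lowest for Ccnd1 and highest for Cdc25b, bone is highest for Cdkn1a and Cdkn1c, and maternal liver is highest for Pold4.

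CDKs with tasks outside the core cycle showed no common direction. Of the 38 probe sets of these genes and their partners, 16 were higher and 11 lower in embryo than in maternal liver of day 12, with a median of 0, near the background of 35.5% and 34.3%. Cdk2ap2 was lower in the embryo (-1.80 ± 0.12, adjusted p = 6.62e-11), as were both probe sets of Cdk18, a kinase of the PCTAIRE family (-0.92 and -0.76). Cdk14, a kinase linked to Wnt signalling, was 1.69 ± 0.16 higher in the embryo and 1.74 ± 0.18 higher in bone than in embryo liver. The other 2 Cdk14 probe sets, both at -0.10 in the embryo comparison, did not pass the test.

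Between day 12 and day 20 few members differed in maternal liver. Of the members, 1 was called (4.47% of the array), Cdk2ap1, another CDK2-associated protein, which was 0.85 ± 0.16 higher at day 20 (adjusted p = 0.00353). The median difference was 0.01, and 127 of the 129 intervals (95%) lay within a 2-fold difference. Without the RA5 embryo, which enters through the common spread, 2 members were called.

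Other genes of the pathway, listed by function and outside the name rule, followed the members. For licensing and fork genes, 18 of 29 listed were measured, 16 were higher and 1 lower in embryo than in maternal liver, with a median of 1.74 (35.5% of the array was higher and 34.3% lower). At day 20, 13 were higher and 1 lower in embryo liver than in maternal liver (16.4% and 16.6% of the array). Of the mitosis list (22 of 49 measured), 22 were higher at day 12 and 22 in embryo liver at day 20, with medians of 2.53 and 1.43. The nucleotide supply list (7 of 8) gave 5 higher and 1 lower at day 12 and 5 higher and 2 lower at day 20. The list of cycle regulators (15 of 27) gave 13 higher and 1 lower, then 14 higher and 1 lower. The list of p53 targets and arrest genes (8 of 12 measured) gave 2 higher and 3 lower at day 12, with a median of -0.06, and 1 higher and 2 lower at day 20. Those last counts are near the background. Over all probe sets the median at day 12 was -0.04.

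Among these genes Ube2c, the ubiquitin carrier of the anaphase-promoting complex, was 3.39 higher in embryo and 3.25 higher in embryo liver than in maternal liver of the same day, and Birc5, a chromosomal passenger protein, 2.28 ± 0.099 and 1.61 ± 0.11. Foxm1, a transcription factor of mitotic genes, was 1.71 and 0.72 higher, and Mybl2, which acts with it, 1.99 and 1.67. Mycn, a Myc family factor of embryonic tissues, was 3.73 ± 0.13 higher in embryo but 0.39 ± 0.14 higher in embryo liver (adjusted p = 0.0456). Between bone and embryo liver, 12 of the 70 measured genes of all lists were higher in bone and 29 lower (25.6% and 29.6% of the array). Of the p53 and arrest list, 5 of 8 genes were higher and 1 lower. The cycle regulators went both ways, with Mycn at 0.76 and E2f5 at 0.68, and E2f4 at -1.07 and Mybl2 at -1.04. Ccng1, a p53 target, was 2.27 ± 0.20 higher in bone and Gadd45a, a stress and arrest gene, differed by -2.35 ± 0.16.

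EMD 82571 did not lead to a called member in any comparison with control. The high dose against control over all 5 tissues and days gave 0 of 129 (limma, 0% of the array called), with 10 members at an unadjusted p under 0.05 (18.4% of the array) and medians of -0.03 and 0.01. The smallest adjusted p of a member was 0.195. The low dose gave 0 (0% of the array; 1 member at an unadjusted p under 0.05, against 1.59%). In the conceptus tissues alone, the mean of both doses gave 0 (0%, with 5 unadjusted against 10.9%), and in maternal liver 0 (0%, with 1 unadjusted against 0.775%). All 129 intervals of the high dose over all tissues lay within a 2-fold difference, with a median half-width of 0.23, so a common shift of 2-fold or more would have been outside them.

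The intervals for single genes bound what the high dose could have done alike in all tissues. For Pcna the difference was -0.09 (95% interval -0.33 to 0.15), for Mcm6 -0.07 (-0.42 to 0.27) and for Mki67 -0.21 (-0.63 to 0.21). The members nearest to a call were Cdkl4, a CDK-like kinase, at 0.39 ± 0.10 (adjusted p = 0.195) and Ccnd1 at -0.43 ± 0.16 (adjusted p = 0.212). In whole embryos of day 12, Mki67 was at 9.92 and 10.11 with the drug against 10.91 in control, but 0 members were called (limma, 0% of the array; 9 at an unadjusted p under 0.05, against 10.6%). For Mki67 the difference was -0.89 ± 0.23 (interval -1.44 to -0.35, adjusted p = 0.451). The spread there comes from the retinoic acid pairs of embryo and maternal liver. Without the RA5 or the RA56 embryo it is left to the maternal pair. Members were then called, in a count not set beside the share of the array, so it does not describe these genes.

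With retinoic acid, few members were called in the conceptus, in a share near that of the array, and none of the calls held without the control bone array. Over the 3 conceptus tissues (whole embryo, fetal liver and fetal bone), 3 of 129 members were called, all 3 higher (1.9% of the array called, 1.81% higher): Prim1, Rfc4 and Top2a. That is 2.33% of the members. The median over members was -0.06, against -0.02 over all probe sets, and 121 of the 129 intervals lay within a 2-fold difference.

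Prim1, the catalytic subunit of primase, lay at 9.30 in the control embryo, 9.26 and 9.51 at the low and high EMD 82571 dose, and 10.20 and 10.84 with retinoic acid. In embryo liver the values were 8.11, 8.11, 8.77 and 9.64 (control, low dose, high dose, retinoic acid), in bone 7.87, 8.75, 7.86 and 9.24. Maternal liver had 7.96, 7.76, 8.07, 8.02 and 8.24 at day 12 and 7.04, 6.76, 7.62 and 7.83 at day 20. A retinoic acid array was the highest in each of the 5 tissues and days, and all 7 lay above their control. In maternal liver of day 12 the RA5 array was within the range of the other treatments and the RA56 array was above it by little. The difference in the conceptus was 1.37 ± 0.22 (interval 0.91 to 1.83, adjusted p = 0.00924), and over all 5 tissues and days 0.98 ± 0.20 (0.56 to 1.40, adjusted p = 0.0259).

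Rfc4, a subunit of the clamp loader, had 9.26, 9.09, 9.38, 10.27 and 10.84 in whole embryo, 8.17, 8.59, 8.67 and 9.92 in embryo liver and 7.57, 8.17, 7.39 and 8.25 in bone. The retinoic acid arrays were again the highest, by a wide margin in embryo and embryo liver and by little in bone, where the low EMD 82571 dose was close. The difference was 1.28 ± 0.22 (0.82 to 1.74, adjusted p = 0.0114). Top2a, topoisomerase II alpha, which untangles DNA, had 9.82, 9.97, 10.71, 10.70 and 11.10 in whole embryo in the called probe set. Here the high EMD 82571 dose was as high as RA5. The difference in the conceptus was 0.82 ± 0.19 (0.42 to 1.21, adjusted p = 0.0365), and in the other Top2a probe set 0.62 ± 0.18 (adjusted p = 0.0986).

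These 3 calls depended on single arrays. The count was 5 without the RA5 embryo or the low or high dose bone array. Without the control bone array none of them was called, at 1.32 for Prim1, 1.37 for Rfc4 and 0.89 for Top2a (adjusted p = 0.091, 0.091 and 0.136). Without the control embryo liver or the control embryo, 1 remained, with Rfc4 at 1.13 and 1.34 (adjusted p = 0.0541 and 0.0546) and Top2a at 0.87 and 0.66. Without the 3 retinoic acid arrays named above, 1 was called: Prim1 was at 1.27 (adjusted p = 0.0655) and Top2a at 0.57 (adjusted p = 0.312), while Rfc4 kept its call. Without the 5 arrays, 2 were called, Prim1 at 1.22 and Rfc4 at 1.38 (adjusted p = 0.0169 and 0.0129), and Top2a was at 0.66 (adjusted p = 0.137). The directions did not change.

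Other replication genes did not pass the test. Rrm1 lay at 1.26 above control in embryo liver, 0.96 in bone and 0.23 and 0.69 in the embryos with retinoic acid, with a difference of 0.84 ± 0.21 in the conceptus (adjusted p = 0.0589). Mki67 was at 0.57 ± 0.21 (adjusted p = 0.24). Pcna, the clamp that Rfc4 helps to load, was at -0.03 (interval -0.35 to 0.29), and Mcm6 at -0.15 (-0.59 to 0.29). Of 70 measured genes on the lists outside the name rule, 4 were called higher (5.71%, against 1.81% of the array): Timeless, which protects the fork, at 0.63 ± 0.099, Hmmr, a spindle protein, at 1.0 ± 0.17, and Cks1b and Cks2, small CDK-binding proteins, at 0.92 ± 0.17 and 1.12 ± 0.20 (adjusted p from 0.00924 to 0.0132). Over all 5 tissues and days Timeless was at 0.28 (adjusted p = 0.461) and Hmmr at 0.53 (adjusted p = 0.158), while Cks1b and Cks2 were called there too. Orc4, of the licensing and fork list, was called there at 0.67 ± 0.16 (limma, adjusted p = 0.0352) but not in the conceptus (0.78, adjusted p = 0.0891). Unlike the calls of members, those of list genes were not recomputed with arrays left out, so their dependence on single arrays is not known.

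**Figure D5:**
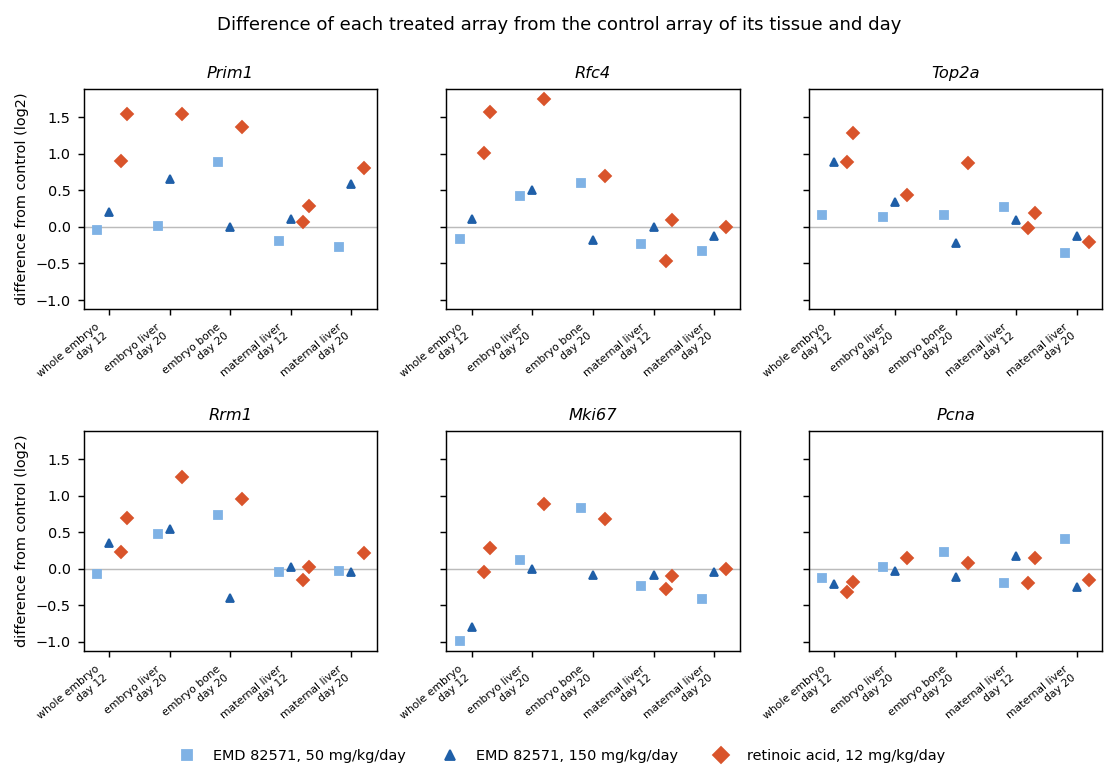
Log2 difference of each treated array from the control array of its tissue and day (vertical axis) for Prim1, Rfc4, Top2a (the called probe set), Rrm1, Mki67 and Pcna, by tissue and day. Symbols and colours mark the treatment. For Prim1 and Rfc4 the retinoic acid arrays of embryo and embryo liver lie between 0.90 and 1.75 above control, while Pcna stays between -0.32 and 0.41 in all 17 treated arrays.

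In maternal liver, retinoic acid gave 0 called members (limma, 0.0756% of the array; 3 at an unadjusted p under 0.05, against 3.15%). Prim1 there was at 0.43 (interval -0.12 to 0.98, adjusted p = 1), and Rfc4 in the day 12 pair lay at 6.95 and 7.52 against 7.42 in control. The test of the difference between conceptus and maternal liver gave 0 calls (limma, 0% of the array), with 9 members at an unadjusted p under 0.05 (2.93% of the array). For Rfc4 that difference was 1.40 ± 0.34 (0.68 to 2.12, adjusted p = 0.572) and for Prim1 0.94 ± 0.34 (adjusted p = 1), so a response particular to the conceptus was not shown. With array weights 5 members were called in that test, a count not set beside the share of the array. Over all 5 tissues and days the only called member was Prim1 (1.83% of the array called, 1.78% higher). That call was lost without any of the control arrays of bone, embryo liver, maternal liver of day 20 or whole embryo, without the RA56 embryo, or without the retinoic acid array of any day 20 tissue, and it stood at 0.82 (adjusted p = 0.373) without the 3 retinoic acid arrays named above.

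The retinoic acid embryos of day 12 differed from each other. The RA5 embryo had 10 members at least 2-fold below control (2.17% of the array was), among them Mcm6 at -1.02, Pola1 at -1.22, Pola2, the polymerase alpha accessory subunit, at -1.03, Pold1 at -1.06 and 2 Ccnd1 probe sets at -1.08 and -1.0. The RA56 embryo had 0 so far below, with Mcm6 at -0.35 and Pola1 at -0.44. It had 3 at least 2-fold above control (1.15% of the array was): Prim1 at 1.54, Rfc4 at 1.57 and Top2a at 1.29. RA5 had 1 above, Rfc4 at 1.01 (1.01% of the array). Over all probe sets the standard deviation was 1.83 in the control embryo, 1.66 in RA5 and 1.8 in RA56. It was 1.7 and 1.67 in the low and high dose embryos, which had 0 members 2-fold below control. The share of members above control was 30.2% in RA5, 34.1% in RA56, 33.3% at the low dose and 37.2% at the high dose. For the array it was 52.1%, 47.5%, 49.1% and 50.9%. The part of the smaller spread in the RA5 values was not tested. The RA5 and RA56 embryos are single arrays with no replicate check. Tested as a pair against control, with the spread taken from the retinoic acid pairs of both day 12 tissues, 0 members were called (limma, 0.0315% of the array; 12 at an unadjusted p under 0.05, against 11.2%), and the nearest were Top2a at 1.08 ± 0.25 (adjusted p = 0.323), Prim1 at 1.22 and Rfc4 at 1.29. With either retinoic acid embryo alone, the spread is left to the maternal pair. Members were then called, in counts not set beside the share of the array.

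In single arrays of day 20, at most 3 members per direction differed by 2-fold from control. Embryo liver with retinoic acid had 3 members higher (0.952% of the array): Rrm1 at 1.26, Prim1 at 1.54 and Rfc4 at 1.75. Bone with retinoic acid had Cdk14 at 1.18, Prim1 at 1.37 and 1 probe set of Cdkn1a at 1.41 higher (2.4%). In embryo liver at the high EMD 82571 dose, Cdkn1c stood at -1.28 (0.706% of the array was lower). In low dose bone, Cdkn1b stood at 1.39 and 1 Cdkn1a probe set at -1.31 (1.64% of the array higher, 1.88% lower), and in high dose maternal liver a Ccnd1 probe set at -1.06 (0.145% lower). In maternal liver of day 12 the control array stood alone for Cdc25b: it had 8.44, and the 4 treated arrays lay 1.04 to 1.16 below it, at 7.28 to 7.40, so all treatments differ from that control alike. It is the same control array in which Hbb and Alas2 were high, and their part in the Cdc25b value was not tested.

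High dose EMD 82571 and retinoic acid were also compared with each other over all 5 tissues and days. Of the members, 11 were called (8.53%, against 14.4% of the array), 8 higher and 3 lower with EMD 82571, where the array had 6.49% and 7.89%. The share lies below the background. The lower ones were Mcm4, an MCM helicase subunit, at -0.59 ± 0.15 (adjusted p = 0.0171), Cdkn1b, which encodes the inhibitor p27, at -0.61 ± 0.17 (adjusted p = 0.0308) and Prim1 at -0.67 ± 0.20 (adjusted p = 0.0373). Higher were, among others, Cdkl4 at 0.42 ± 0.095 (adjusted p = 0.0129) and 2 probe sets of Cdk5rap2, a centrosome protein, at 0.28 and 0.31. The Prim1 value uses the same retinoic acid arrays as the comparisons with control. The count fell to 0 without the high dose bone array, to 1 without retinoic acid embryo liver, to 2 without high dose embryo liver or retinoic acid bone, to 3 without retinoic acid maternal liver of day 20 and to 4 without the high dose embryo or the RA56 embryo. It was 5 without the high dose maternal liver of day 20, 7 without the low dose embryo or the control maternal liver of day 12, 18 without the RA5 embryo and 0 without the 3 retinoic acid arrays. At day 12 the comparison of EMD 82571 with retinoic acid in whole embryo gave 0 calls (limma, 0% of the array). At an unadjusted p under 0.05 there were 7, against 6.86%. Members were called without the RA5 embryo, the RA56 embryo or either maternal liver of the pair, in counts not set beside the share of the array.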

How the data were processed

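RNA of 22 rat samples was measured on Affymetrix arrays, 1 per sample. The authors deposited log2 probe set values from RMA, per the submitters' processing notes, with no RMA version and no word on pooling of RNA. Of 15923 rows, 57 array controls were left out and 15866 probe sets were tested with no filter. Symbols came from the probe table: 12783 probe sets had 1 symbol, 312 several and 2771 none. After RMA the arrays had like medians (8.09 to 8.22), so differences are relative to the rest of each array. Their spreads were less alike, with standard deviations over all probe sets from 1.51 (high dose embryo liver) to 1.83 (control embryo). The part of these spreads in the differences was not tested. The members and the gene lists were chosen with earlier results of these data known.

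limma 3.58.1 (R 4.3.3) served for all tests, two-sided, with lmFit and eBayes with an intensity trend. The main model had tissue and day as a block and treatment as a factor (14 residual degrees of freedom). A further model split treatment by conceptus and maternal liver (11), and another used the day 12 arrays (2, from the retinoic acid pairs, with other arrays assumed to vary like them). Benjamini-Hochberg adjustment ran over the whole array in each of 19 comparisons, and an adjusted p under 0.05 is a call. No treatment was tested within a tissue of day 20, where each has 1 array. A gene was represented by the probe set with the highest mean. Named were genes with a core role in the cycle and, per comparison, the 5 called members with the largest difference per direction, or with fewer calls the 3 with the smallest p. Other named genes of the lists and of single arrays were picked after their values were seen. The scripts were tested on simulated data.

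Alternatives were array weights, quantile normalization, leaving out the lowest 25% of probe sets, no intensity trend, a random block, 1 probe set per gene, a replicate block and each array left out. Promoters are RefSeq sequences of GRCr8, and no coordinates of other features were used.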

Additional observations from a re-analysis of the deposited data

How the results depend on the processing

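No named member that was called in the main run reversed its direction in an alternative run. Differences without a call, genes of the lists and single arrays were not checked in this way. The tissue comparisons kept their counts of called members within 1.5 times in every alternative run, except bone against embryo liver (62), which gave 37 without 5 arrays, and maternal liver of day 20 against day 12 (1), which gave 2 after quantile normalization and 4 with array weights. With each array left out in turn the counts ran from 102 to 110 for embryo against maternal liver, 70 to 79 for embryo liver against maternal liver, 54 to 66 for bone against embryo liver, 85 to 92 for bone against embryo, 97 to 107 for embryo liver against embryo and 1 to 2 between the maternal livers. The comparisons of EMD 82571 with control over several tissues, and those of retinoic acid in maternal liver, stayed at 0 in all alternatives run. For retinoic acid over all 5 tissues and days (1) the count ran from 0 to 2, in the conceptus (3) from 0 to 5 and for high dose EMD 82571 against retinoic acid (11) from 0 to 18. In these runs the test of conceptus against maternal liver stayed at 0. At day 12 the ranges were 0 to 37 for EMD 82571, 0 to 65 for retinoic acid and 0 to 24 between them, where leaving out an RA embryo leaves the spread to the maternal liver pair alone.

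Retinoic acid over all tissues and days gave 2 without the low dose bone array, after quantile normalization or without the lowest 25% of probe sets, 3 with array weights, and 0 without the 3 retinoic acid arrays or the 5 arrays named in the report. In the conceptus it gave 5 without the low dose bone array, 11 with array weights and 1 without the 3 retinoic acid arrays, and the test against maternal liver gave 5 with array weights. High dose EMD 82571 against retinoic acid gave 7 with 1 probe set per gene and 0 without the 3 or the 5 arrays. Without the 3 or the 5 arrays, day 12 gave 37 for EMD 82571, 65 for retinoic acid and 18 between them, and EMD 82571 gave 4 with array weights. The set of 3 was chosen with earlier results known and the set of 5 after seeing the data. The cause of these changes was not tested. Counts from all alternative runs in this report, with arrays left out or with other settings, stand without the share of the array called in the same run. They therefore do not describe the members.

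The codes RA5 and RA56 do not show a pairing of embryo with maternal liver (correlation of deviations -0.14, 2 pairs). With the code as a replicate block, the count was 0 for retinoic acid over all tissues and days, 2 for high dose EMD 82571 against retinoic acid, and at day 12 3 for retinoic acid and 3 between the treatments. With the pairing crossed, the counts were 0, 1, 5 and 4, and 1 for EMD 82571 at day 12. The number of arrays limits the precision: every tissue of day 20 has 1 array per treatment.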
